A study of Mus musculus with 4 samples.

Results

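Granzymes are serine proteases that cytotoxic lymphocytes store in granules, and perforin is the protein that forms pores through which they enter a target cell. The 9 genes described here are Prf1, which encodes perforin, and the granzyme genes Gzma, Gzmb, Gzmc, Gzmd, Gzme, Gzmf, Gzmk and Gzmm. They were taken by gene symbol from the 31053 genes of a single-cell RNA count matrix, and each symbol was found once. The mice were males aged 8 weeks that carried tumours of MC38, a murine line of colorectal origin, in a model of liver metastasis promoted by surgical stress. Livers were collected 3 weeks after tumour injection and the CD45-positive cells of the non-parenchymal fraction were enriched with beads. Pre-operative exercise had been given to the mice of 2 libraries, called Ex 1 and Ex 2 here, and the mice of the other 2, Sed 1 and Sed 2, were sedentary. All 4 libraries came from tumour-bearing mice. The labels do not say whether a library came from 1 animal or from several, so p-values measure the spread between these libraries only. No tumour-free or unoperated group was analysed here.

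In the liver, cytotoxic granules are carried by CD8 T cells, natural killer (NK) cells, innate-like T cells and, at lower perforin content, type 1 innate lymphoid cells (ILC1). Granzyme B cleaves after aspartate and activates caspases inside the target cell. Granzymes A and K are tryptases, which cleave after basic residues, and granzyme M prefers methionine or leucine. Granzymes C, D, E and F are rodent proteases whose genes lie beside Gzmb and which are known from activated lymphocytes.

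The 4 libraries held 32969739 UMIs (unique molecular identifiers, each counting 1 captured RNA molecule) in Ex 1 and 23918964 in Ex 2, against 37563756 in Sed 1 and 41027638 in Sed 2. After filtering, 5763 and 4097 cells of the exercised and 6839 and 7141 cells of the sedentary libraries remained. Cells were put into 7 classes by UMIs of marker genes, none of them a granzyme gene or Prf1: 1337 CD8 T, 86 regulatory T (Treg), 231 CD4 T, 346 NKT, 174 gamma-delta T, 459 NK and 247 ILC1 cells. Median mitochondrial shares were 3.92% and 4.35% of UMIs in the exercised and 2.61% and 2.95% in the sedentary libraries. A further 1417 cells with at least 2 CD3 UMIs met no class and were left out. Of the 83 cell barcodes that occurred in more than 1 library, 1 was shared among the cells of these classes. The labelled classes held the markers by which they were gated. Cd8b1, which formed the gate together with Cd8a, was seen in 92.8% of CD8 T cells. Foxp3, which was the gate, was seen in all Treg cells, so these shares are no separate check of the classes. The NKT class rests on Klrb1c or Zbtb16, and the gene segment of its invariant receptor, Trav11, was seen in 3.18% of its cells. Gamma-delta T cells had UMIs of Trac, the alpha chain gene of other T cells, in 25.9% of cells, against 85.3% of CD4 T cells.

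The genes lie on 3 chromosomes (GENCODE vM21 annotation, build GRCm38), and all are annotated as protein coding. Gzmb, Gzmc, Gzmd, Gzme and Gzmf lie on the minus strand within chr14:56117626-56262260, a stretch of 144.6 kb that also holds Gzmg and Gzmn. Gzma and Gzmk lie on the minus strand within chr13:113093825-113225908. Gzmm (chr10:79689020-79695261) and Prf1 (chr10:61297833-61304680) lie on the plus strand of chromosome 10. Reads of Gzmd, Gzme, Gzmf and Gzmg cannot always be told apart, because 3′ libraries read transcript ends: over the last 300 transcript bases Gzmd and Gzme were 84.0% identical with a shared run of 49 bases. Gzmd and Gzmf were 85.0% identical there, with a shared run of 71 bases. Counts of single members of this group, and bounds drawn from them, are therefore uncertain. The sum of Gzmd, Gzme and Gzmf is given below, without Gzmg unless stated. Gzmc shared runs of at most 10 bases with them, and Gzmb runs of at most 8.

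The 250 bases before the RefSeq start (GRCm38.p6) are shown for the 5 genes whose levels in CD8 T cells changed with exercise and for Gzmd and Gzme, a near-identical pair. They run over chr13:113100982-113101231 (Gzma, minus strand), chr13:113180966-113181215 (Gzmk, minus strand), chr14:56262335-56262584 (Gzmb, minus strand), chr10:61297586-61297835 (Prf1, plus strand), chr10:79688770-79689019 (Gzmm, plus strand), chr14:56132594-56132843 (Gzmd, minus strand) and chr14:56120626-56120875 (Gzme, minus strand). Capitals mark matches on either strand to the RUNX motif TGTGGT, the T-box motif AGGTGNNA, the AP-1 motif TGANTCA and the CRE motif TGACGT.
Gzma: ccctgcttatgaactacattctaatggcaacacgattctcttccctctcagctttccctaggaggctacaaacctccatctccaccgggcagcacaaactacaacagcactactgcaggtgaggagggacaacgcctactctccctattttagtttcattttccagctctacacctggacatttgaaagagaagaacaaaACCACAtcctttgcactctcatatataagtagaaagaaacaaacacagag
Gzmk: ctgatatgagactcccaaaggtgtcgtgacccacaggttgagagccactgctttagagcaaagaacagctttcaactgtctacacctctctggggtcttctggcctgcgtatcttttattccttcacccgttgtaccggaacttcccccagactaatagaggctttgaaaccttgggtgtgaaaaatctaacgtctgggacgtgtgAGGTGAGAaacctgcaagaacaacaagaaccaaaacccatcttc
Gzmb: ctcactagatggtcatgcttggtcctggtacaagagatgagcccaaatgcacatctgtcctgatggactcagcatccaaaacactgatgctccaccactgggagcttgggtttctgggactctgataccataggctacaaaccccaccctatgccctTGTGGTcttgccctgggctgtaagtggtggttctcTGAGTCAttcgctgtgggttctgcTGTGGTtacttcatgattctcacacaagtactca
Prf1: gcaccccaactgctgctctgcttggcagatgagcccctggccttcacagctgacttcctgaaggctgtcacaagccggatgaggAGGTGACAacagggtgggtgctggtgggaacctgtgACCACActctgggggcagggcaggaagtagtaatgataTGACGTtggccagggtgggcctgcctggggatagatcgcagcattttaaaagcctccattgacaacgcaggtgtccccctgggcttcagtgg
Gzmm: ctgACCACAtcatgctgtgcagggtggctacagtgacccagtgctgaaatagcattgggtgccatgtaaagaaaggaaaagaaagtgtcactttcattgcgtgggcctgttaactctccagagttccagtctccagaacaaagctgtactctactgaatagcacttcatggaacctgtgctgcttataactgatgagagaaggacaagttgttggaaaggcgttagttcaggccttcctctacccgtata
Gzmd: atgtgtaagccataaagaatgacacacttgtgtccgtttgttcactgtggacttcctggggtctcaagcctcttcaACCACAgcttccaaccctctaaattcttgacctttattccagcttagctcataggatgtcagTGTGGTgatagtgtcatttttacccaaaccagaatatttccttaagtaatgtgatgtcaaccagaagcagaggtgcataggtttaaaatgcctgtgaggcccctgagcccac
Gzme: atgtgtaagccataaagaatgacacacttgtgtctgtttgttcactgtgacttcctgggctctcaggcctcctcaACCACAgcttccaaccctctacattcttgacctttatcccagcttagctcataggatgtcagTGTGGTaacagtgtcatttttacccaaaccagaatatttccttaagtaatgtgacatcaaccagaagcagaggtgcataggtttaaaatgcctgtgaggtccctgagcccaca
The RUNX motif occurred in all of these windows except that of Gzmk, and in 14.2% of the 27025 RefSeq promoter windows of the same length. The T-box motif occurred in those of Gzmk and Prf1 (13.7% of all windows), and the AP-1 motif in that of Gzmb (6.87%). The CRE motif occurred in that of Prf1 (6.56%) and, among the genes not shown, in those of Gzmc and Gzmf. The Gzmd and Gzme windows were 94.8% identical. The RefSeq start of Gzmk lies 44943 bases from that of GENCODE, so its window describes the RefSeq start only. A match describes letters and not binding.

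Across the classes, NK cells had the highest mean level of Prf1 and Gzma, while Gzmb was spread over nearly all classes. Mean Gzmk was highest in CD8 T cells, through the sedentary libraries only. Levels are CPM, the UMIs of a gene per 1000000 UMIs summed over the cells of a class in a library. Means over the 4 libraries are given with their SD. Prf1 averaged 977 ± 148 CPM in NK cells and 280.3 ± 89.4 CPM in ILC1 cells, and the lowest NK library, at 796 CPM, was above the highest ILC1 library, at 384 CPM. CD8 T cells (229.9 ± 162 CPM), NKT cells (189 ± 161) and gamma-delta T cells (90.4 ± 25.8) followed with overlapping ranges. Treg cells (26.99 ± 21.07 CPM) and CD4 T cells (26.4 ± 9.21) lay below gamma-delta T cells without overlap.

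Gzma ranged from 6974 to 17057 CPM in NK cells and from 1633 to 7367 CPM in ILC1 cells. In CD8 T cells (162 to 8936 CPM), NKT cells (268 to 6783) and gamma-delta T cells (53.2 to 2827) the libraries spanned more than a power of 10, and neighbours in this order overlapped. Treg cells (14.8 and 15.4 CPM in the exercised, 21.5 and 0 CPM in the sedentary libraries) and CD4 T cells (10.4 and 0, against 0 and 0 CPM) had little of it. For free RNA, B cells, which should not make granzyme A, had 3.06 and 0.803 CPM in the exercised and 22.5 and 6.78 CPM in the sedentary libraries. Gzmk averaged 158 ± 166 CPM in CD8 T cells and 48.9 ± 48.4 CPM in CD4 T cells, with overlap. CD8 T cells had more of it than CD4 T cells in both sedentary libraries, and less in both exercised ones. It reached at most 19.8 CPM in a library of NK, NKT, gamma-delta T or ILC1 cells. No Treg cell had a UMI of it.

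Gzmb averaged 1958 ± 610.0 CPM in ILC1 cells, 1514 ± 491 in NK cells, 1221 ± 770.2 in NKT cells, 1064 ± 445 in Treg cells, 1022 ± 893 in CD8 T cells, 747 ± 457 in gamma-delta T cells and 239 ± 328 in CD4 T cells. Each of these classes overlapped the next. Gzmm was low throughout, with means of 35.04 ± 33.99 CPM in CD8 T cells, 32.1 ± 24.1 in NK cells, 19.4 ± 12.95 in NKT cells and 16.5 ± 18.2 in gamma-delta T cells. Gzmc averaged 424 ± 209 CPM in ILC1 cells and 573 ± 1078 CPM in NK cells, and the NK mean came from Sed 1. In ILC1 cells of Sed 1, 1 of 44 cells carried most of it, and without that cell, left out after seeing the data, the level was 72.8 CPM in place of 671 CPM.

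**Figure D1:**
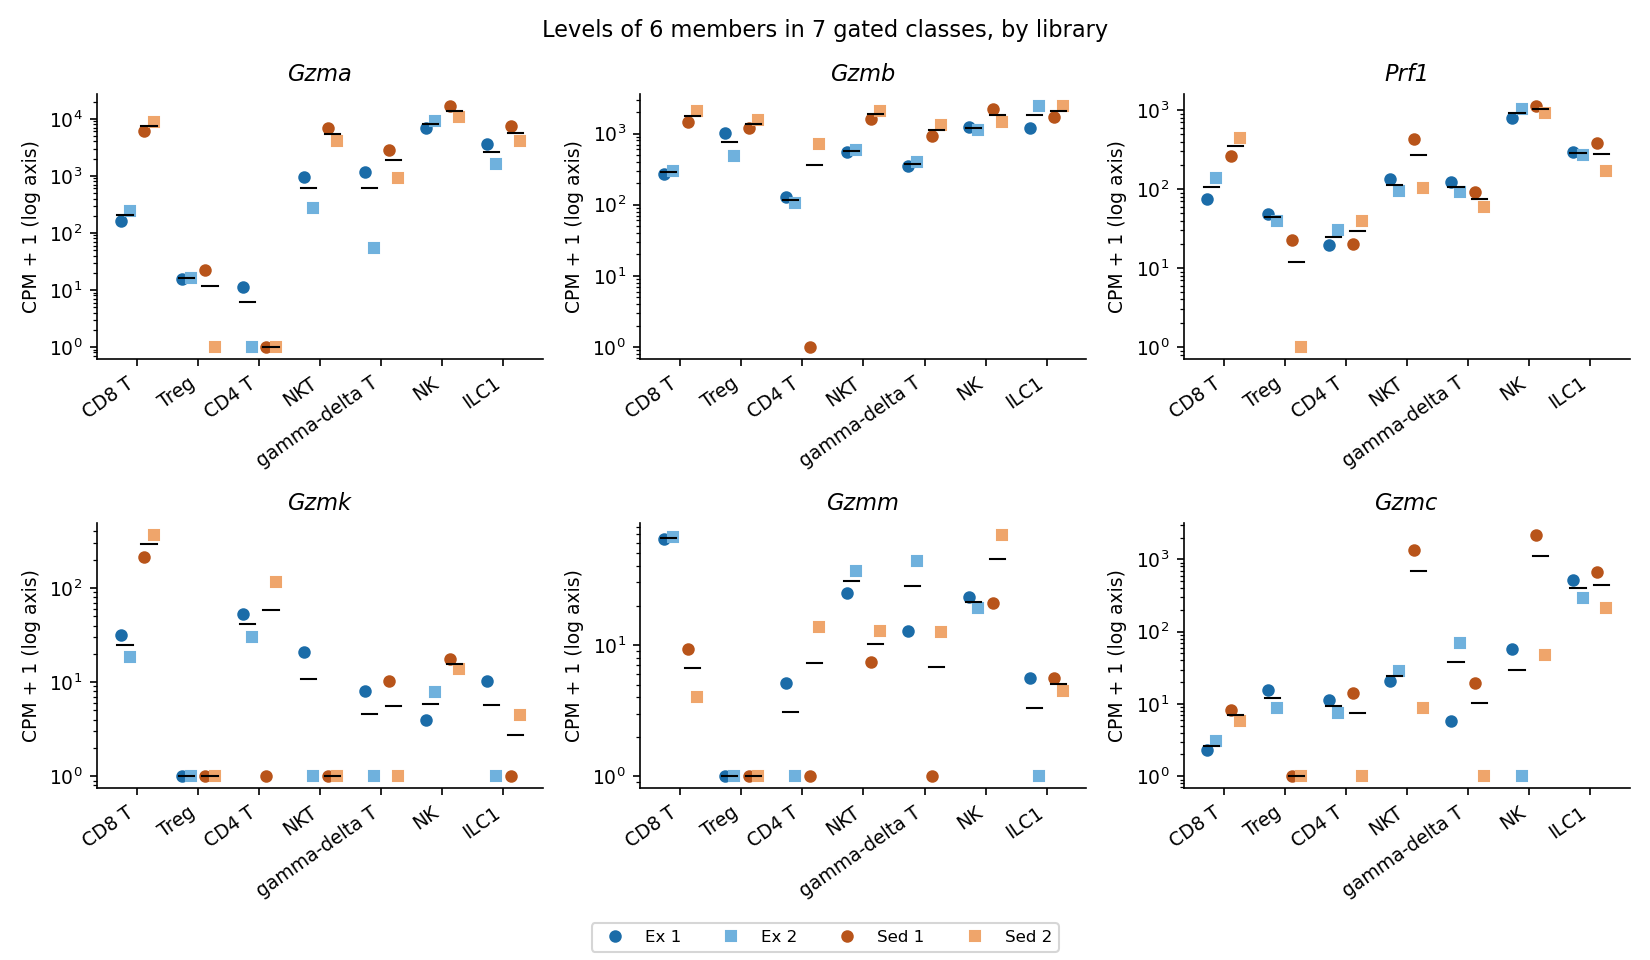
Levels of 6 of the genes in the 7 classes, as CPM + 1 on a log axis. Each point is 1 library (Ex left of Sed in each class) and each line is the mean of 2 libraries. In CD8 T cells both exercised points lie below both sedentary points for Gzma and Gzmb, and for Gzmm both lie above.

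Differences between classes were tested in a fit with the library as a block, in which 8 of the 9 genes passed the low-count filter, all except Gzmd. NK cells had more Prf1 than ILC1 cells, by 1.91 ± 0.41 on the log2 scale (± SE here and below; edgeR's quasi-likelihood test, Benjamini-Hochberg adjusted p = 0.0100). It was the only one of the 8 called in this contrast, which called 3.79% of 4982 genes, and without Ex 2 its adjusted p was 0.150, the highest of 13 alternatives. Against CD8 T cells, NK cells had more Prf1 (2.05 ± 0.40, adjusted p = 0.00103), more Gzmc (6.01 ± 1.26, adjusted p = 0.00231) and less Gzmk (-3.61 ± 0.75, adjusted p = 0.00313) by the same test. For Gzmc, NK cells had 56.5 and 0 CPM in Ex 1 and Ex 2, against 2190 and 46.9 CPM in Sed 1 and Sed 2. CD8 T cells had 1.27 and 2.03 CPM, against 7.24 and 4.81 CPM. Most of the NK level thus lay in Sed 1, and Ex 2 went the other way. The Gzmc call held in 13 of 13 alternatives, with changes from 3.36 to 6.73. NK cells also had more Gzma than CD8 T cells (2.56 ± 0.82, edgeR adjusted p = 0.0416). Gzma was called in 7 of 13 alternatives only, and lost without Sed 1, Ex 1 or Ex 2 (adjusted p of up to 0.388). Its value averages over exercised and sedentary libraries, which differed. NK cells had 6974 and 9065 CPM of Gzma in Ex 1 and Ex 2, against 162 and 243 CPM in CD8 T cells. In Sed 1 and Sed 2 they had 17057 and 10882 CPM, against 6057 and 8936 CPM. This contrast called 15.2% of all genes.

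Among T cells, Treg cells had more Gzmb than CD4 T cells (2.36 ± 0.61, edgeR adjusted p = 0.0467). It was the 1 gene called among the 8, where 2.59% of all genes were called, and the call was lost when any of the 4 libraries was left out, with adjusted p of up to 0.371 over 13 alternatives. NKT cells exceeded CD4 T cells in Gzma (8.33 ± 1.38, adjusted p = 0.000618), Prf1 (2.75 ± 0.64, adjusted p = 0.0108) and Gzmb (2.56 ± 0.59, adjusted p = 0.0114) by the same edgeR test, where 6.28% of all genes were called. The Prf1 call was lost without Sed 1, Ex 1 or Ex 2, with adjusted p of up to 0.829 over 13 alternatives, and the Gzmb call without the same libraries, with up to 0.161. With classes taken from clusters in place of gates, Gzma was -1.71 and Prf1 -0.30 on the log2 scale in that contrast, the other direction. Between gamma-delta T and CD8 T cells edgeR called 0 of the 8 genes and 3.47% of all genes. At an unadjusted p under 0.05 there were 3 (Gzmf, Gzmk and Prf1), and DESeq2 called 1, Gzmk.

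CD8 T cells of exercised mice had lower levels of Prf1, Gzma, Gzmk and Gzmb than those of sedentary mice, and a higher level of Gzmm. Prf1 had 75.0 and 139 CPM in Ex 1 and Ex 2, against 263 and 442 CPM in Sed 1 and Sed 2. Both exercised libraries lay below both sedentary ones, and the change was -1.69 ± 0.31 (edgeR's quasi-likelihood test, adjusted p = 0.00327). Without Ex 1 the adjusted p was 0.124, the highest of 14 alternatives, of which 13 kept the call. Gzma had 162 and 243 CPM in the exercised libraries, against 6057 and 8936 CPM in the sedentary ones. The groups were far apart, with a change of -5.17 ± 0.34 (edgeR adjusted p = 2.89e-09).

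Gzmk, the other tryptase, had 30.5 and 17.6 CPM in CD8 T cells of Ex 1 and Ex 2, against 215 and 367 CPM in Sed 1 and Sed 2. The groups did not overlap, and the change was -3.52 ± 0.32 (edgeR adjusted p = 1.14e-06). Gzmb had 272 and 296 CPM in the exercised libraries, against 1435 and 2085 CPM in the sedentary ones. All 4 values kept the groups apart, with a change of -2.59 ± 0.27 (edgeR adjusted p = 3.22e-06). Gzmm had 63.2 and 65.6 CPM in the exercised libraries, against 8.35 and 3.00 CPM in the sedentary ones. The exercised libraries were the high ones here, and the change was 3.49 ± 0.39 (edgeR adjusted p = 7e-06).

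Of the 9 genes 6 passed the low-count filter in CD8 T cells and 5 were called, 4 lower and 1 higher, where 5.01% of 8466 genes were called (3.21% lower and 1.80% higher). Apart from any test, both exercised libraries lay below both sedentary ones for 24.6% of these genes and above for 23.8%. No such share is given for the other classes and the subsets. Gzma, Gzmb, Gzmk and Gzmm were called in 14 of 14 alternatives. Gzmf passed the filter with 0 and 23.7 CPM in the exercised libraries and 215 and 194 CPM in the sedentary ones, without a call (-4.28 ± 1.65, edgeR adjusted p = 0.410). Gzmc, Gzmd and Gzme did not pass it.

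The shares of CD8 T cells with a UMI were in the same order. Gzma was seen in 10.4% and 8.11% of the cells of Ex 1 and Ex 2, against 48.3% and 66.6% in Sed 1 and Sed 2. In B cells these shares were 0.810% and 0.267%, against 5.05% and 1.46%. The CD8 T cells were the deeper ones in exercised mice, with median UMIs of 6000.0 and 5771, against 4994 and 3006, while B cells had 2301 and 2724, against 1940.0 and 1656. Thinned to 1500 UMIs a cell, Gzma was seen in 7.44% and 4.50% of the exercised CD8 T cells, against 44.1% and 64.3% of the sedentary ones. Gzmm was seen in 6.85% and 7.66% of thinned exercised cells, against 2.88% and 0.723% of thinned sedentary ones. Before thinning its shares were 19.5% and 18.9%, against 3.13% and 1.09%, and in B cells 0.231% and 0.445%, against 0% and 0%.

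The CD8 T sums also held UMIs of other cells' markers. The 4 neutrophil markers, none of them at 0, summed to 45.8 and 25.7 CPM in exercised CD8 T cells, against 174 and 130 CPM in sedentary ones. The 6 macrophage markers summed to 10.6 and 5.41 CPM, against 17.3 and 65.5 CPM. The 3 monocyte markers (Ly6c2, Lyz2 and Ccr2, of which Ly6c2 and Ccr2 are also T cell genes) summed to 1536 and 1008 CPM, against 738 and 459 CPM. Mcpt8, Cpa3 and Fcer1a, markers of basophils and mast cells, were at 0 in all 4 libraries. The part of free RNA and of other cells in the CD8 T differences was not tested, and the B cell levels above show what free RNA gave in cells that do not make granzyme A. Cells with UMIs of cycling genes were 9.47% and 7.21% of exercised CD8 T cells, against 17.2% and 12.7% of sedentary ones, and the same 5 genes were called without them, with Gzmf in addition.

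The make-up of the CD8 T class differed between the groups. Effector-like cells, gated by more UMIs of Pdcd1, Lag3, Havcr2, Tox, Tigit, Cxcr6, Klrg1, Cx3cr1 and Id2 than of naive cell markers, among them Lef1, Ccr7, Igfbp4 and S1pr1, were 26.0% and 20.3% of CD8 T cells in Ex 1 and Ex 2. They were 59.2% and 90.0% in Sed 1 and Sed 2. The exact binomial 95% intervals, which cover the counting of cells only, spanned 15.2% to 31.1% over the exercised libraries. Those of Sed 1 (53.6% to 64.7%) and Sed 2 (86.8% to 92.6%) were apart from these and also from each other. Naive-like cells were 66.9% and 77.5%, against 39.5% and 5.90%. The exact two-sided permutation test over 2 against 2 libraries cannot go below p = 0.333, so shares were not tested. CD8 T cells were 36.3% and 37.6% of the 7 classes, against 53.1% and 60.4%, but 5.87% and 5.42%, against 4.66% and 6.41%, of all kept cells, where the ratio of the group means, exercised over sedentary, was 1.02.

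Within effector-like CD8 T cells the levels of Gzma, Gzmk and Gzmb were still lower in exercised mice. Gzma had 650.1 and 1095 CPM in Ex 1 and Ex 2, against 10002 and 9707 CPM in Sed 1 and Sed 2. Gzmk had 90.8 and 80.2 CPM, against 357 and 399.8 CPM. Gzmb had 796 and 1247 CPM, against 2328 and 2249 CPM. By edgeR's quasi-likelihood test the change was -3.63 ± 0.23 for Gzma (adjusted p = 6.25e-09) and -2.23 ± 0.25 for Gzmk (adjusted p = 1.29e-05). That of Gzmb was -1.29 ± 0.21 by the same test (adjusted p = 0.00117). Gzmm had 42.6 and 43.2 CPM, against 3.70 and 2.67 CPM, a change of 3.63 ± 0.50 (edgeR adjusted p = 0.000184). Prf1 had 115 and 346 CPM, against 429 and 482 CPM, and was not called (-1.16 ± 0.36, edgeR adjusted p = 0.116), though 7 of 13 alternatives called it. These 4 calls were among 6 genes that passed the filter, and 3.39% of 6923 genes were called in the subset.

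The effector-like cells of the 2 groups lay largely in different clusters. Cluster 0 (Ccl5, Tox and Cd8a among its leading genes) held 1 and 4 effector-like cells of Ex 1 and Ex 2, against 54 and 253 of Sed 1 and Sed 2, and cluster 4 (Lag3, Pdcd1 and Havcr2) held 2 and 3, against 90 and 96. The exercised effector-like cells lay mostly in cluster 19 (Cx3cr1, S1pr5 and Zeb2), with 22 and 9 cells, cluster 6, with 21 and 1, cluster 8, of cycling cells, with 10 and 6 (40 and 36 in the sedentary libraries), and cluster 10, with 4 and 8. Effector-like cells with at least 2 UMIs of Pdcd1, Lag3, Havcr2 and Tox, genes of chronically stimulated T cells, numbered 17 and 19 in the exercised libraries, against 148 and 270 in the sedentary ones. In those cells Gzma had 648 and 1196 CPM, against 9780.3 and 10071 CPM. Gzmb had 528 and 1779 CPM there, against 2432 and 2207 CPM. In the effector-like cells with fewer such UMIs Gzma had 652 and 945 CPM, against 11309.9 and 8724 CPM. The exercised libraries were thus the low ones for Gzma on both sides of this split, which was chosen after the data had been seen. The side with at least 2 such UMIs has too few exercised cells for a test. The other side, with 71 and 26 exercised and 41 and 142 sedentary cells, was not tested.

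In naive-like CD8 T cells, Gzmm and Prf1 were both higher in exercised mice. Gzmm had 70.8 and 74.7 CPM, against 11.6 and 7.95 CPM, a change of 2.54 ± 0.49 (edgeR adjusted p = 0.00369). Prf1 had 64.8 and 82.8 CPM, against 8.72 and 15.9 CPM, a change of 2.68 ± 0.51 (edgeR adjusted p = 0.00318). The direction for Prf1 was the reverse of that in the whole class. These were 2 calls among 5 genes that passed the filter, where 0.661% of 6507 genes were called. Both calls were lost with DESeq2 and without Sed 1, among 12 alternatives that gave an adjusted p. With thinned sums neither gene was called, and neither had an adjusted p there. Sed 2 had only 27 naive-like cells. Gzma had 16.8 and 3.598 CPM, against 17.4 and 373 CPM, with Sed 2 alone high and no call (-3.78 ± 2.18, edgeR adjusted p = 0.788). Gzmb had 92.4 and 27.9 CPM, against 52.3 and 222 CPM, with overlapping groups.

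**Figure D2:**
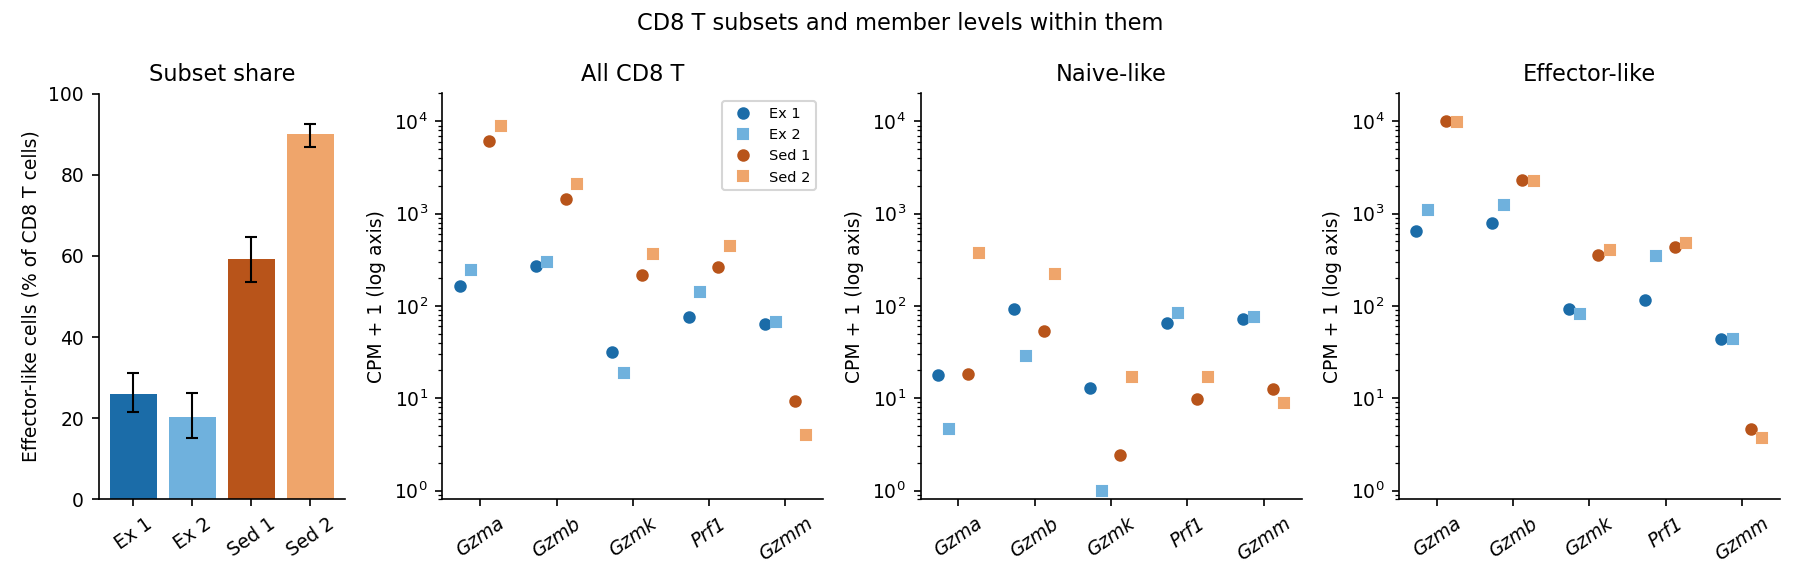
Share of CD8 T cells that were effector-like (bars, with exact binomial 95% intervals) and levels of 5 genes as CPM + 1 on a log axis in all, naive-like and effector-like CD8 T cells; each point is 1 library. Effector-like cells were 26.0% and 20.3% in the exercised libraries, against 59.2% and 90.0% in the sedentary ones, and Gzma differed between the groups within them as well.

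To set the shift in subsets beside the change in levels, the difference in mean CPM of the class was split into a part from subset shares of UMIs and a part from levels within subsets. For Gzma the shares gave 37.01% of the CD8 T difference of -7294 CPM, for Gzmk 44.2%, for Gzmb 53.7% and for Prf1 64.2%. For Gzmm the shares gave 16.9% of a difference of 58.7 CPM. With equal subset shares in each library, the log2 ratio of exercised over sedentary means was -3.55 for Gzma (-5.21 unadjusted), -2.08 for Gzmk (-3.54), -1.20 for Gzmb (-2.63), -0.65 for Prf1 (-1.71) and 2.65 for Gzmm (3.29). A split into 4 subsets, with the effector-like cells divided by inhibitory receptors, gave parts of 36.9% for Gzma, 45.6% for Gzmk, 55.5% for Gzmb, 71.7% for Prf1 and 25.7% for Gzmm. Finer subsets could take a larger part, and this was not tested. Over the 7 classes together, the shares of the classes gave 13.8% of the Gzma difference, 9.29% of that of Gzmk, 9.37% of that of Gzmb and 26.3% of that of Prf1.

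**Figure D3:**
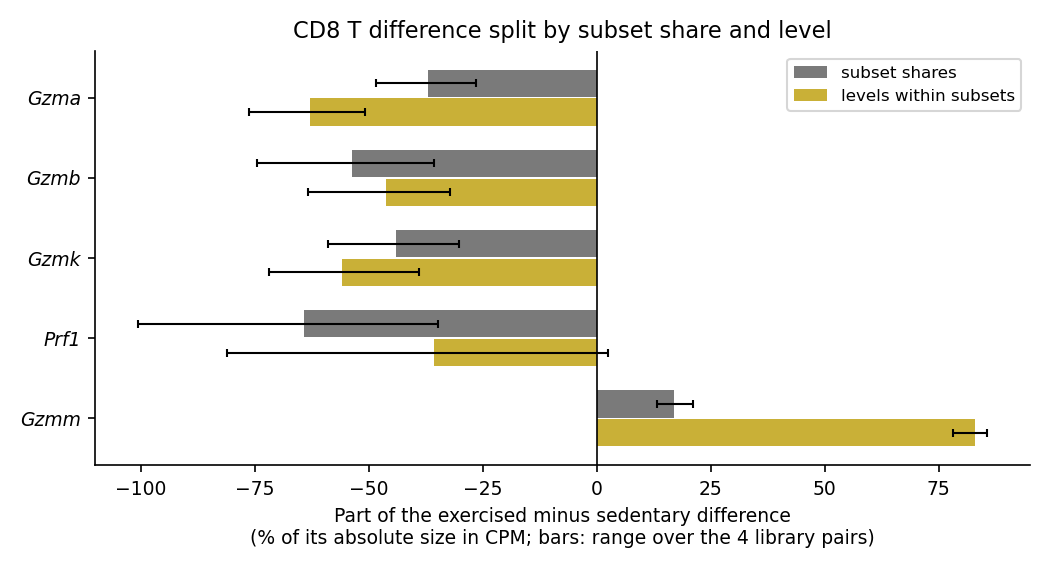
The difference between exercised and sedentary CD8 T cells split into the part from subset shares and the part from levels within the subsets, as percent of the size of the difference in CPM; thin bars give the range over the 4 pairs of libraries. Subset shares gave 37.01% for Gzma and 64.2% for Prf1, and for Gzmm both parts lie above 0.

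NKT cells showed lower Gzma and Gzmb in exercised mice. Gzma had 939 and 268 CPM in Ex 1 and Ex 2, against 6783 and 4047 CPM in Sed 1 and Sed 2, a change of -3.25 ± 0.37 (edgeR adjusted p = 8.48e-10). Gzmb had 557 and 595 CPM, against 1626 and 2106 CPM, a change of -1.77 ± 0.31 (edgeR adjusted p = 3.85e-06). In the same cells Ncr1, an NK receptor gene, had 83.2 and 38.2 CPM in exercised libraries, against 259 and 354 CPM in sedentary ones. Klrb1c, which encodes NK1.1, had 341 and 322 CPM in exercised libraries, against 452 and 605 CPM in sedentary ones. Zbtb16, the NKT lineage transcription factor PLZF, had 91.1 and 205 CPM in exercised libraries, against 32.3 and 78.6 CPM in sedentary ones. The 4 neutrophil markers, none of them at 0, summed to 73.3 and 38.2 CPM in exercised libraries, against 152 and 122 CPM in sedentary ones, and the part of these shifts in the NKT changes was not tested. Prf1 had 133 and 92.8 CPM, against 429.8 and 102 CPM, and was not called (-1.36 ± 0.49, edgeR adjusted p = 0.211), with Sed 1 alone high. The 2 calls were among 3 genes that passed the filter, where 1.97% of 4358 genes were called. Gzma was called in 8 of 14 alternatives and Gzmb in 12 of 14, and neither was called when the classes came from clusters. The Gzma call was also lost without Sed 1 or Sed 2 and the Gzmb call without Ex 2, with adjusted p over the alternatives of up to 0.900 for Gzma and 0.440 for Gzmb.

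NK cells showed lower Gzma in exercised mice by a small margin. Gzma had 6974 and 9065 CPM in Ex 1 and Ex 2, against 17057 and 10882 CPM in Sed 1 and Sed 2. Both exercised values were below both sedentary ones, with Sed 1 alone far higher, and the change was -0.94 ± 0.25 (edgeR adjusted p = 0.0333). The call was lost in 9 of 14 alternatives, among them without Sed 1, Ex 1 or Ex 2, with adjusted p of up to 0.425, and without Sed 1 the change was -0.50. It was 1 call among 5 genes that passed the filter, where 3.41% of 5713 genes were called. Gzmb had 1230.4 and 1139 CPM, against 2222 and 1465 CPM (-0.78 ± 0.25, edgeR adjusted p = 0.0782). Prf1 had 796 and 1033 CPM, against 1145 and 933 CPM, with overlapping groups (-0.32 ± 0.25, edgeR adjusted p = 0.470). Gzmm had 22.3 and 18.3 CPM, against 19.8 and 68.1 CPM, with overlapping groups and Sed 2 alone high. It was not called (-0.80 ± 0.48, edgeR adjusted p = 0.344).

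The NK subsets did not shift in the same way in both sedentary libraries. Mature-like NK cells, gated by more UMIs of Itgam, Klrg1, S1pr5, Cx3cr1 and Zeb2 than of Cd27, Ltb, Thy1, Cd7 and Emb, were 29.6% and 37.1% of NK cells in Ex 1 and Ex 2, against 12.0% and 43.3% in Sed 1 and Sed 2. They had 14239 and 14637 CPM of Gzma, against 16024 and 14468 CPM, and with 13 cells in Sed 1 they were not tested. Immature-like NK cells had 4538 and 6236 CPM of Gzma, against 17176 and 8826 CPM. Here edgeR called 0 of the 4 genes that passed the filter (Gzma -1.38 ± 0.32, adjusted p = 0.0838), while 1.06% of 4695 genes were called. At an unadjusted p under 0.05 there were 2 (Gzma and Gzmb), and DESeq2 called 2 (Gzmd and Gzmf). Subset shares gave -3.45% of the NK difference in Gzma on average. Over the 4 pairs of libraries their part ran from -755 to 911 CPM, so it had no steady direction. Cycling cells were 2.23% and 2.86% of NK cells, against 19.4% and 10.4%, and without them Gzma was not called.

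In ILC1 cells edgeR called 0 of the 4 genes that passed the filter (0.317% of 3466 genes were called). At an unadjusted p under 0.05 there was 1, Gzma, and DESeq2 called 0. Gzma had 3571 and 1633 CPM, against 7367 and 4054 CPM (-1.26 ± 0.38, edgeR adjusted p = 0.186), and the exercised values were the low ones. Gzmb had 1206 and 2475 CPM, against 1717 and 2433 CPM, and Prf1 had 298 and 273 CPM, against 384 and 167 CPM. Both overlapped between the groups, with changes of -0.29 ± 0.32 and -0.06 ± 0.32.

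In gamma-delta T cells edgeR called 0 of the 3 genes that passed the filter, and 0.0464% of 2154 genes. Gzmb had 347 and 399 CPM, against 936 and 1304 CPM, and was the 1 gene under an unadjusted p of 0.05 (-1.57 ± 0.29, edgeR adjusted p = 0.114), while DESeq2 called 0. The groups did not overlap for it. Gzma had 1148 and 53.2 CPM, against 2827 and 908 CPM, with overlap. Prf1 had 121 and 90.5 CPM, against 91.8 and 58.2 CPM.

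In CD4 T cells edgeR called 0 of the 2 genes that passed the filter, with 0 at an unadjusted p under 0.05 and 0 by DESeq2 (0.576% of 3124 genes were called). Gzmb had 128 and 105 CPM, against 0 CPM in Sed 1 and 723 CPM in Sed 2. Gzmk had 51.8 and 29.5 CPM, against 0 and 114 CPM. The sedentary libraries lay on both sides of the exercised ones for both genes, with 41 and 22 cells. Treg cells were too few in the sedentary libraries, at 13 in each, for a test of exercise: Gzmb had 1034 and 476 CPM, against 1205 and 1541 CPM, and Prf1 had 48.0 and 38.4 CPM, against 21.5 and 0 CPM.

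**Figure D4:**
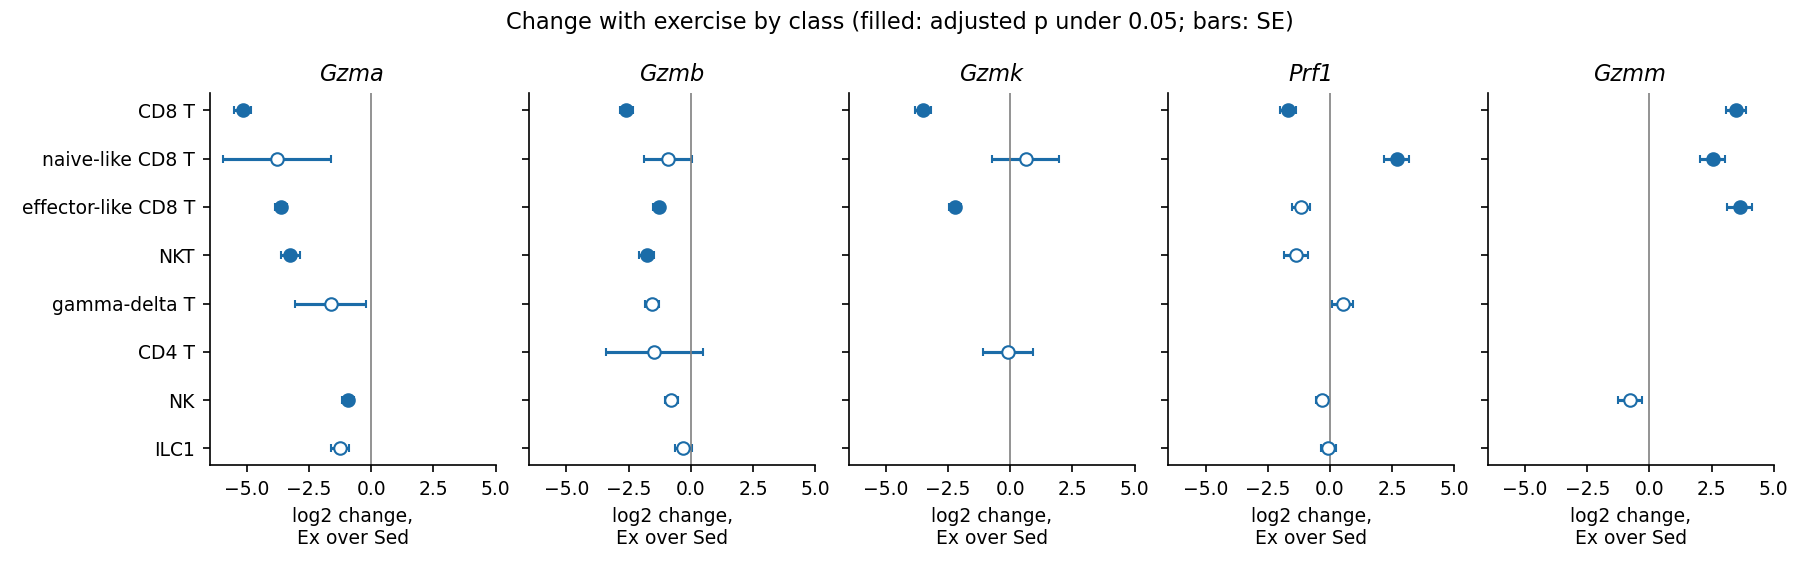
Log2 change of 5 genes, exercised over sedentary, in each class or CD8 T subset in which the gene passed the filter; bars are SE and filled points have an adjusted p under 0.05 by edgeR. Filled points to the right of 0 are those of Gzmm in CD8 T cells and both subsets and of Prf1 in naive-like CD8 T cells.

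With the cells of all 7 classes pooled, 5 of the 9 genes were called, where 1.94% of 9785 genes were called. Gzma had 1382 and 1535 CPM, against 8578 and 7475 CPM (-2.54 ± 0.25, edgeR adjusted p = 0.000117). Prf1 had 186 and 251 CPM, against 492 and 394 CPM (-1.11 ± 0.23, edgeR adjusted p = 0.0203), and without Ex 1, without Ex 2 or with stricter cell filters that call was lost, with a highest adjusted p of 0.162 over 14 alternatives. The log2 change was -1.74 for Gzmb, -3.32 for Gzmk and 1.84 for Gzmm, all 3 called. The Gzmk call was lost without cycling cells and with a replicate block, with edgeR adjusted p of up to 0.259 over 14 alternatives. The size of the exercise effect differed between 6 classes (all but Treg) for Gzmm (edgeR interaction test, adjusted p = 0.00146) and Gzmk (adjusted p = 0.0264). It was not called for Gzma (edgeR adjusted p = 0.238), Prf1 (0.505) or Gzmb (0.561), and 5.93% of 5063 genes were called. The classes hold part of each gene's UMIs: 22.2% and 9.87% of all Gzma UMIs of Ex 1 and Ex 2 and 32.7% and 24.6% of those of Sed 1 and Sed 2 lay in cells of T and NK clusters that met no class.

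Gzmd, Gzme and Gzmf were nearly confined to a few cells of the sedentary libraries, mainly of Sed 1. In the 7 classes pooled their UMIs summed to 0 in Ex 1 and 36 in Ex 2, against 3959 in Sed 1 and 422 in Sed 2. Of those in Ex 2, 35 lay in 1 CD8 T cell. In Sed 1, 97.1% of them lay in 30 of 601 cells with at least 10 such UMIs each, and in Sed 2, 86.7% lay in 6 of 758 cells. All 30 and all 6 of those cells also had Gzmb UMIs, and 13 and 2 were cycling. NK cells of Sed 1 held 3038 of the UMIs, 98.4% of them in 16 of 108 cells, and 1 cell held 1374.

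In NK cells Gzmd had 0 and 0 CPM in the exercised libraries, against 1239.8 and 0 CPM in the sedentary ones. Gzme had 0 and 0 CPM, against 635 and 0 CPM, and Gzmf had 0 and 0 CPM, against 1473 and 0 CPM. Sed 2 was thus at 0 like the exercised libraries, and the group values rest on Sed 1. Against a floor of 3 counts over the exercised group, the pooled exercised NK cells had at least 364.5-fold lower Gzmd, 186.6-fold lower Gzme and 433.2-fold lower Gzmf than the pooled sedentary ones. Gzmc followed Sed 1 too, with 56.5 and 0 CPM in exercised NK cells, against 2189.7 and 46.9 CPM (-5.34 ± 2.85, edgeR adjusted p = 0.442). Without the cells that held at least 10 UMIs, a step chosen after seeing the data, Gzmc of Sed 1 NK cells was 237 CPM, Gzmd 40.3 CPM and Gzmf 20.9 CPM.

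In CD8 T cells both sedentary libraries carried Gzmf UMIs, as given above, and 32 of 319 and 24 of 458 cells had a UMI of any of the 3 genes. Gzmd had 0 and 0 CPM, against 2.78 and 27.6 CPM, and Gzme had 0 and 0 CPM, against 2.78 and 28.2 CPM. These were at least 18.9-fold and 19.2-fold lower in the exercised group at the floor of 3 counts, and Sed 2 carried most of them. Of the UMIs of the 3 genes, 87.9% lay in 9 cells of Sed 1 and 88.2% in 6 cells of Sed 2. Without those cells, left out after seeing the data, Gzmd had 2.34 and 1.23 CPM in Sed 1 and Sed 2, and Gzme 0 and 0.614 CPM. The 2 bounds thus rest mainly on those cells of Sed 2. A cluster with Spp1, Serpinb9b and Klrg1 among its leading genes, most of whose classed cells were NK cells, held 6 and 3 cells of Ex 1 and Ex 2, against 97 and 14 of Sed 1 and Sed 2. Cells outside the T and NK clusters also carried the group: 7 cells of Sed 1 and 4 of Sed 2 had at least 50 UMIs of Gzmd to Gzmg, which made up a median of 8.996% and 22.9% of their UMIs, and no cell of the exercised libraries did. Their median depth was 2557 and 1129 UMIs.

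**Figure D5:**
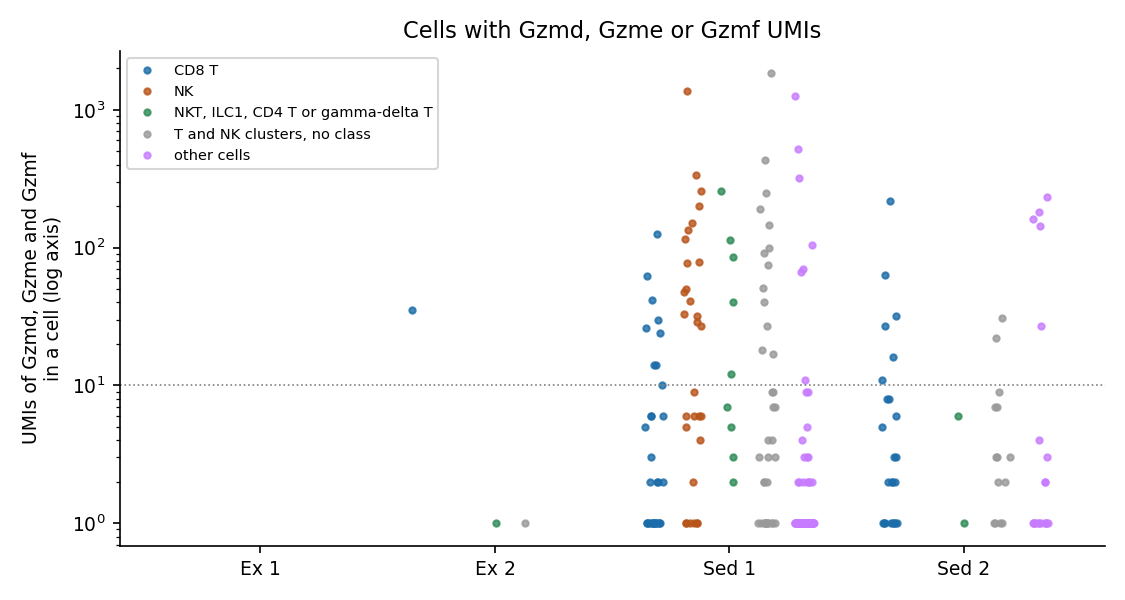
UMIs of Gzmd, Gzme and Gzmf together in each cell that had any, on a log axis, by library and kind of cell; the dotted line marks 10 UMIs. Ex 1 has no such cell and Ex 2 a single cell above the line, while the highest NK cell of Sed 1 has 1374 UMIs.

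The genes also differed in how often they were seen in the same CD8 T cell. Of cells with Gzma UMIs, 80.0% and 72.2% also had Gzmb UMIs in Ex 1 and Ex 2, against 92.9% and 96.4% in Sed 1 and Sed 2. Of the same cells, 28.6% and 33.3% had Gzmk UMIs, against 72.1% and 66.2%. These shares rise with the level of the second gene, so they describe the cells and are not a test of pairing. Of cells with Gzmm UMIs, 6 of 66 and 1 of 42 had Gzma UMIs in the exercised libraries, against 6 of 10 and 1 of 5 in the sedentary ones. Among NK cells with Gzma UMIs, 71.4% and 74.8% had Gzmb UMIs, against 96.0% and 85.0%.

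Other genes of the killing pathway were taken from 5 lists with 42 genes. They were tested in the reported fit only and under none of the alternatives, so how far their calls hold is not known. In CD8 T cells 10 of the 38 that passed the filter were called, all lower in exercised mice. Over all 8466 genes tested there, 3.21% were called lower and 1.80% higher. The median change of the 38 was -0.49, against 0.00 for all genes tested. The part of subset shares in these changes was not tested. The smallest adjusted p-values were those of Serpinb6b, a clade B serpin (-1.53 ± 0.24, edgeR adjusted p = 0.000388), the transcription factor gene Bhlhe40 (-1.72 ± 0.28, adjusted p = 0.000553), Id2, a regulator of effector cells that was also among the effector-like markers (-1.49 ± 0.26, adjusted p = 0.00112), and the serpin gene Serpinb9b (-4.23 ± 0.67, adjusted p = 0.00230). The lists split as 4 of 12 genes of granule content, processing and control, 1 of 10 of granule release, 2 of 4 other killing molecules and 3 of 12 transcription factors. Neither Gzmg nor Gzmn passed the filter there.

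In effector-like CD8 T cells 4 of 37 list genes were called, 2 higher and 2 lower, where 3.39% of 6923 genes were called. Tcf7, the gene of a transcription factor of naive and memory-like T cells, was higher in exercised mice (4.15 ± 0.39, edgeR adjusted p = 2.59e-06), and so was Tnf (1.99 ± 0.40, adjusted p = 0.00618). Nkg7, a granule membrane protein gene, was lower (-1.17 ± 0.20, adjusted p = 0.00159), as was Serpinb9b (-2.69 ± 0.66, adjusted p = 0.0332). In naive-like CD8 T cells 3 of 33 were called, all higher, where 0.661% of 6507 genes were called. These were Eomes (1.99 ± 0.46, edgeR adjusted p = 0.0237), Tbx21 (2.95 ± 0.70, adjusted p = 0.0329), both T-box factor genes, and Serpinb9, which encodes an inhibitor of granzyme B (2.96 ± 0.72, adjusted p = 0.0382). Serpinb9 was among the genes called lower in the whole CD8 T class, and Sed 2 had only 27 naive-like cells.

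In NK cells 3 of 34 list genes were called, where 3.41% of 5713 genes were called. Serpinb9b was lower in exercised mice (-2.33 ± 0.30, edgeR adjusted p = 1.66e-05), and so was Rab27a, which encodes a GTPase of granule docking (-1.34 ± 0.37, adjusted p = 0.0375). Lyst, a gene of lysosome trafficking, was higher (1.25 ± 0.36, adjusted p = 0.0419). In NKT cells 3 of 31 were called, where 1.97% of 4358 genes were called. Tnf (1.75 ± 0.41, edgeR adjusted p = 0.00302) and Lyst (1.06 ± 0.30, adjusted p = 0.0282) were higher and Serpinb6b was lower (-1.11 ± 0.30, adjusted p = 0.0164). In ILC1, CD4 T and gamma-delta T cells edgeR called 0 of 29, 0 of 27 and 0 of 22. Of all genes tested in these classes, 0.317%, 0.576% and 0.0464% were called. The median change in NK cells was 0.06, against 0.04 for all genes tested.

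Over the 28 sums of 7 classes in 4 libraries, the genes whose log2 (CPM + 1) was most like that of Gzma among 8674 genes were Cd244 (Pearson r = 0.91), Klre1 (0.88), Lat2 (0.88), Padi2 (0.87) and Prf1 (0.86). Those most like Prf1 were Arsb (0.95), Serpinb6b (0.88), Gzma (0.86), Efhd2 (0.85) and Ptp4a3 (0.84). For Gzmb they were Camk2n1 (0.87), Litaf (0.86), Tgfb1, Nkg7 and Serpina3g (0.85 each). For Gzmk the highest were Hook2 (0.62), Fignl1 (0.61), Cd8a (0.60), Cd8b1 (0.60) and Ttll5 (0.59). Klre1, Cd8a and Cd8b1 are markers by which the classes were gated, and sums of 1 library share its depth and free RNA. Gzma and Gzmb had an r of 0.60 with each other, and Gzma and Gzmk of 0.11.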

How the data were processed

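Cells were profiled with 10x 3′ libraries. The values used are raw UMI counts, 1 per gene and barcode, as deposited. The authors made them with Cell Ranger: the file header names version 6.1.1, while the submitters' processing notes name 7.0.0 and the genome mm10 (GRCm38). Of its columns, 28525 have a barcode and 22615 have none and were not used. The library of a barcode was taken from its suffix, read as the place in the deposited aggregation table.

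Barcodes stayed in if they had 200 genes or more and no more than 10% of UMIs from mitochondrial genes. Scrublet (scanpy 1.11.5) marked 0.017% and 0.024% of the exercised and 3.498% and 0% of the sedentary cells by its automatic thresholds, too few in 3 libraries, so the cells with the highest scores were removed at 0.8% per 1000 cells (293 and 144 exercised, 422 and 462 sedentary). T cells needed at least 2 UMIs of Cd3d, Cd3e and Cd3g, and each class at least 1 UMI of its markers: Cd8a or Cd8b1, Foxp3, Cd4, Zbtb16 or Klrb1c for NKT, Trdc for gamma-delta T. NK and ILC1 cells had no CD3 UMI, a UMI of Ncr1, Klrb1c or Klre1, and more UMIs of their own list than of the other. Cells with over 1 UMI of other cells' markers, or over 10 of S100a8, S100a9, Hba-a1 and Hbb-bs, were left out, a list that was lengthened after marker levels had been seen, because the first gates let neutrophils into NK cells and dendritic and endothelial cells into ILC1 cells.

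Counts were summed per class and library where each library had at least 20 cells, and tested with edgeR 4.0.16 (R 4.3.3; filterByExpr, TMM, robust quasi-likelihood F test, Benjamini-Hochberg over all genes tested, threshold 0.05). SE is the log2 change divided by the square root of F. Class contrasts used the library as a block, and the interaction was 1 joint test over 6 classes. Alternatives were DESeq2 1.42.0, RLE scaling, no filter, stricter cells, doublets kept, 2 marker UMIs, Leiden clusters (leidenalg 0.10.2, made without the 9 genes), thinned sums, no cycling cells, a replicate block and leaving out each library. In simulated CD8 T counts edgeR recovered 36 of 100 true 2-fold and 97 of 100 true 4-fold changes, and called 4 of 10428 genes drawn without a change. For NK against CD8 T cells these were 45, 78 and 7 of 11648, and for the interaction 16, 63 and 2 of 11574.

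Binomial intervals (exact Clopper-Pearson, 95%) and floors of 3 counts over a group cover counting error only. The members and lists were chosen with earlier results of these data known. Named genes outside the 9 were at most 4 called genes of the 5 lists per class, by adjusted p, and the 5 genes most like each of the 4 members shown. One marker of the naive-like gate is not reported here.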

Additional observations from a re-analysis of the deposited data

Results flagged for a closer look

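The exercise effect on Gzmm differed between the 6 tested classes (joint interaction test of edgeR, adjusted p = 0.00146). Its log2 change was 3.49 in CD8 T cells and -0.80 in NK cells, where the groups overlapped (22.3 and 18.3, against 19.8 and 68.1 CPM). It was called in 6 of 9 alternatives, and not with DESeq2, with 2 marker UMIs or without Ex 1, where the highest adjusted p was 0.233. The effect on Gzmk also differed between classes (edgeR, adjusted p = 0.0264), with a log2 change of -3.52 in CD8 T cells and -0.10 in CD4 T cells. It was called in 6 of 9 alternatives, and not with DESeq2, without Ex 1 or without Ex 2, where the highest adjusted p was 0.649. The test covers all 6 classes at once, and no single pair of classes was tested.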

How the results depend on the processing

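Counts below are of the 9 genes called, with the reported count in brackets. In CD8 T cells and in the pooled classes no alternative other than leaving out a library or the crossed pairing changed the count by over 1.5 times. DESeq2 called 1 in NKT (2), 3 in NK (1), 0 in naive-like CD8 T (2), 2 in immature-like NK (0), 2 in NK against CD8 T (4), 1 in gamma-delta T against CD8 T (0) and 0 in the interaction (2). Without the low-count filter there were 1 in gamma-delta T (0), 1 in ILC1 (0), 7 in effector-like CD8 T (4), 2 in immature-like NK (0), 6 in NK against ILC1 (1), 7 in NK against CD8 T (4), 2 in Treg against CD4 T (1), 9 in NKT against CD4 T (3) and 6 in gamma-delta T against CD8 T (0). A minimum of 500 genes with a maximum of 5% mitochondrial UMIs gave 0 in NK, in Treg against CD4 T and in the interaction. With doublets kept, NKT gave 1. With 2 marker UMIs, NK gave 0 and NK against CD8 T 2. Leiden clusters gave 0 in NKT, NK and Treg against CD4 T, 1 in ILC1, 2 in NK against ILC1, 1 in NKT against CD4 T and 4 in gamma-delta T against CD8 T. Under them Gzma (-1.71) and Prf1 (-0.30) reversed in NKT against CD4 T. Thinned sums gave 1 in NKT, 0 in NK, naive-like CD8 T and Treg against CD4 T, and 1 in the interaction. Without cycling cells there were 0 in NK and Treg against CD4 T, 1 in immature-like NK, 2 in NK against CD8 T and 1 in the interaction. The causes were not tested.

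With a replicate block NK gave 3, ILC1 1 and immature-like NK 1. The labels state no pairing, and deviations of same-numbered libraries correlated at -0.118 (CD4 T) to 0.192 (NKT). Crossed pairing, chosen after seeing the data, gave 0 in CD4 T, where that correlation prompted it, and elsewhere 2 in gamma-delta T (0), 0 in NK (1), 2 in immature-like NK (0) and 8 in the pooled classes (5). Leaving out 1 library at a time, where the lone library is assumed to vary like the others, gave 5 to 7 in CD8 T, 4 to 9 in the pooled classes, 1 to 4 in naive-like and 5 to 8 in effector-like CD8 T, 1 to 6 in NKT, 0 to 5 in NK, 0 to 6 in immature-like NK, 0 to 4 in ILC1, 0 to 1 in CD4 T and in gamma-delta T, 0 to 3 in NK against ILC1, 3 to 5 in NK against CD8 T, 0 to 0 in Treg against CD4 T, 1 to 5 in NKT against CD4 T, 0 to 1 in gamma-delta T against CD8 T and 0 to 4 in the interaction. Over all kept cells the exercised over sedentary share ratio of CD8 T cells was 1.02, against 0.651 over the 7 classes, and that of effector-like CD8 T cells 0.308, against 0.199. Of 470 log2 changes of single genes under the alternatives, 394 kept direction and side of the threshold, 52 lost the call, 22 gained it and 2 reversed. Treg cells, effector-like Treg cells and mature-like NK cells had under 20 cells in a library, so their other alternatives were not run. Leiden clusters gave enough Treg cells (51 and 45 exercised, 26 and 42 sedentary), and edgeR called 0 of 3 genes there, with 1 (Gzma) at an unadjusted p under 0.05. The share of all genes called in that fit is not given, so no conclusion is drawn from this count. DESeq2 was not run on them.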
